A study of Mus musculus with 6 samples.

Results

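miR-192-5p, miR-194-5p, miR-215-5p, miR-375-3p and miR-122-5p are mature miRNAs known from gut, liver and pancreas, the main organs of endodermal origin. They were read out by name, as mmu-miR-192-5p, mmu-miR-194-5p, mmu-miR-215-5p, mmu-miR-375-3p and mmu-miR-122-5p, from a table of 1907 mature mouse miRNAs, and all 5 were in it. The RNA came from mouse embryonic stem cells (ESCs) of 2 lines, RB18 and RB20, both derived from C57BL/6 mice in R2i and grown without feeders in 3 media, which gave 6 small RNA libraries. Serum medium held 15% fetal bovine serum, whereas 2i and R2i were serum-free. In comparisons with serum medium, the absence of serum and the presence of inhibitors thus cannot be told apart. The 2i medium had PD0325901, which blocks MEK, at 1 µM, and CHIR99021, which blocks GSK3, at 3 µM. R2i kept PD0325901 at 1 µM and added SB431542, which blocks TGF-β receptors, at 10 µM in place of CHIR99021. All media held 1000 U/ml LIF, and the serum and 2i cells had been moved out of R2i for at least 10 passages. Each library was made from a pool of 3 cultures, so each medium has 2 libraries, one per line. The tests between media measure the spread between these pools and lines, except where the line itself is fitted.

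A miRNA guides the silencing machinery to messenger RNAs through its seed, bases 2 to 8 from the 5′ end, so miRNAs that share a seed are expected to share many targets. miR-192 and miR-194 are abundant in gut, kidney and liver epithelium, where hepatocyte nuclear factors drive their genes, and miR-192, miR-194 and miR-215 also respond to p53. miR-375 is a miRNA of pancreatic islets and other endocrine cells that restrains insulin secretion, and miR-122 is the dominant miRNA of hepatocytes.

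The sequences of the miR-192, miR-194 and miR-215 products are shown because some of these products share a seed and others a whole mature sequence, and only products whose full sequences differ can be counted apart. Seeds are in capitals, and the sequences are those of RefSeq for GRCm38.p6.
miR-192-5p: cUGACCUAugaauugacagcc
miR-215-5p: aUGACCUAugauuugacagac
miR-194-5p: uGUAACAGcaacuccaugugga
miR-194-1-3p: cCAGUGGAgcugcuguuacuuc
miR-194-2-3p: cCAGUGGGgcugcuguuaucug
miR-192-5p and miR-215-5p were identical at 18 of 21 positions. Counted from the 5′ end, with the base of miR-192-5p first, they differed by C1A, A12U and C20A, all outside the seed. Among 1679 mature names searched, the seed UGACCUA was held by this pair alone, and GUAACAG by miR-194-5p alone. miR-194-5p has the same sequence in both of its genes, whereas the 3p arms of those genes differed at 4 of 22 positions, given with the base of miR-194-1-3p first as A8G, C19U, U20C and C22G.

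The genes form 2 small clusters on GRCm38, each with a copy of miR-194. Mir194-2 (chr19:6264643-6264728, plus strand) lies 115 bases before Mir192 (chr19:6264844-6264932, plus strand), in the intergenic stretch between Atg2a and Ehd1. Mir194-1 (chr1:185313319-185313385, plus strand) lies 195 bases before Mir215 (chr1:185313581-185313692, plus strand). Both are antisense to the protein-coding gene Iars2 without touching its exons, and Mir215 overlaps an exon of the antisense transcript 2010103J01Rik. Mir375 (chr1:74900658-74900721, minus strand) is intergenic, between Cryba2 and Cfap65.

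The libraries held 1041858 to 3593356 counts assigned to miRNAs, and RB18 was the shallower line in every medium, so line and depth cannot be told apart. Levels are CPM, counts scaled to a common library total, with 95% Wilson intervals that cover counting error only. A limit of 3 counts corresponded to between 0.835 and 2.88 CPM. The cells carried ESC miRNAs in all 6 libraries, since 9 miRNAs of the miR-290 and miR-302 clusters summed to between 267494 and 352342 CPM after TMM scaling. Of 7 blood and serum markers, 6 had counts, and their sum was between 787 and 5222 CPM after TMM scaling. Most of it was miR-142a-5p and miR-150-5p in every library, whereas the myeloid marker miR-223-3p was at 0 in all 6. The erythroid miR-451a had 0 counts in RB18 and 3 in RB20 in serum against 22 to 66 in the other libraries. By the edgeR test described below it was called higher in 2i and R2i, as were 96 and 86 of 571 miRNAs tested. It passed the filter on low counts only through 2i and R2i, where it was high. miR-142a-5p was called lower in R2i (log2 fold change -2.43, adjusted p = 0.00753, edgeR), as were 15.6% of all. miR-142a-3p, miR-150-5p and miR-486a-5p were called in neither comparison.

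The 5 miRNAs fell into an abundant pair and 3 rare members. miR-192-5p was the most abundant of them in every library, with 25696 counts over the 6 libraries, and miR-194-5p followed with 1160. miR-375-3p had 52 counts in all, miR-215-5p 26 and miR-122-5p 24. In these bulk libraries, fewer cells of a type and less RNA per cell cannot be told apart, so a low level describes the pool and not each cell.

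**Figure D1:**
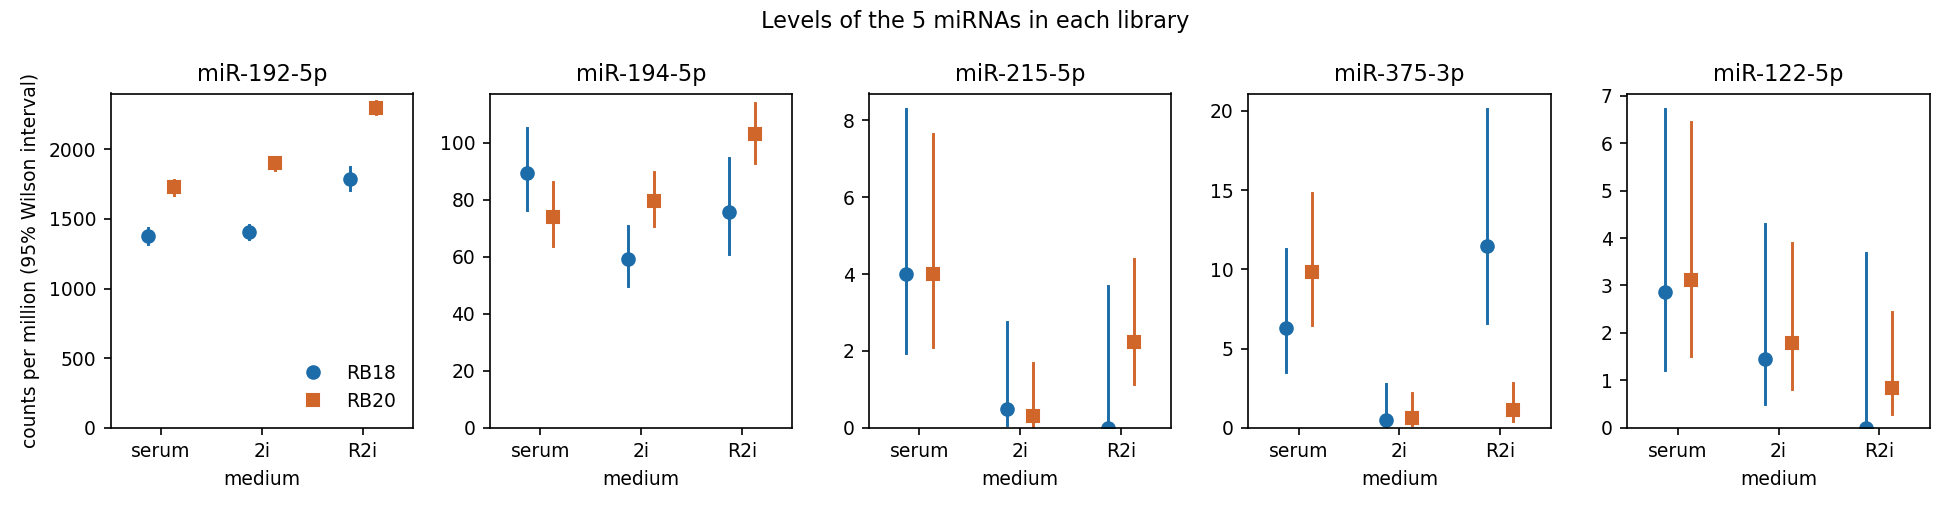
Level of each miRNA in CPM (vertical axis, from 0, with its own scale per panel) in serum, 2i and R2i; circles are RB18, squares RB20 and bars 95% Wilson intervals. miR-192-5p lay at 1377 CPM or more in all 6 libraries, whereas miR-215-5p, miR-375-3p and miR-122-5p stayed at 11.5 CPM or less.

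miR-192-5p was measured at 1377 CPM in RB18 and 1727 CPM in RB20 in serum. It stood at 1406 CPM in RB18 and 1901 CPM in RB20 in 2i, and at 1788 CPM in RB18 and 2300 CPM in RB20 in R2i. Serum and 2i overlapped, and R2i was the highest medium within each line. On this scale the R2i libraries lay above both serum libraries, but after TMM scaling RB18 in R2i (1598 CPM) fell below RB20 in serum (1921 CPM). It ranked between 47 and 69 among the miRNAs of each library. The mean was 1552 ± 248 CPM for serum, 1654 ± 350 CPM for 2i and 2044 ± 362 for R2i (SD, n = 2 each). Serum and 2i differed by less than the SD of either, and R2i exceeded 2i by slightly more than that, with libraries that overlapped.

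miR-194-5p was more than 10 times rarer than its cluster partner. Serum gave 89.4 CPM in RB18 and 74.0 CPM in RB20. The 2i values were 59.3 CPM in RB18 and 79.6 CPM in RB20, and those of R2i 75.8 CPM in RB18 and 103 CPM in RB20. All 3 media overlapped. In RB18 both inhibitor media lay below serum and in RB20 both lay above it, although after TMM scaling RB20 was level between 2i (81.8 CPM) and serum (82.3 CPM). The mean was 81.7 ± 10.9 CPM for serum, 69.5 ± 14.4 CPM for 2i and 89.3 ± 19.0 CPM for R2i (SD, n = 2 each).

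miR-375-3p was low in 2i and split between the lines in R2i. In serum 11 counts were read in RB18 (6.31 CPM) and 22 in RB20 (9.81 CPM). In 2i 1 count was read in RB18 (0.486 CPM) and 2 in RB20 (0.594 CPM), both under the limit of 3 counts. R2i gave 12 counts in RB18 (11.5 CPM, interval 6.59 to 20.1) against 4 in the more deeply sequenced RB20 (1.11 CPM, interval 0.433 to 2.86). Serum and 2i did not overlap, whereas in R2i RB20 lay below both serum libraries and RB18 did not. RB18 in R2i was above RB20 in serum by library totals and below it after TMM scaling (10.3 against 10.9 CPM).

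miR-215-5p, the seed partner of miR-192-5p, had 7 counts in RB18 and 9 in RB20 in serum, which is 4.01 CPM in each. A single count was read in each 2i library (0.486 CPM in RB18 and 0.297 CPM in RB20). In R2i it was not detected in RB18, the shallowest library, where 3 counts correspond to 2.88 CPM, and had 8 counts in RB20 (2.23 CPM). Both serum libraries were above the other 4, but their intervals reached down to 1.94 CPM in RB18 and 2.11 CPM in RB20. The R2i intervals reached up to 3.69 CPM in RB18 and 4.39 CPM in RB20, and that of RB18 in 2i up to 2.75 CPM, so these overlapped serum. The interval of RB20 in 2i, up to 1.68 CPM, did not.

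miR-122-5p had 5 counts in RB18 (2.87 CPM) and 7 in RB20 (3.12 CPM) in serum. It had 3 counts in RB18 (1.46 CPM) and 6 in RB20 (1.78 CPM) in 2i. R2i gave 0 counts in RB18 and 3 in RB20 (0.835 CPM). The serum libraries were again the highest, with intervals that overlapped those of 2i (1.22 to 6.71 CPM for RB18 in serum against 0.496 to 4.29 CPM for RB18 in 2i).

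To ask whether the medium changed the members, counts were tested with edgeR's quasi-likelihood test over all 6 libraries, and calls needed a change of more than 2-fold with a p, adjusted by Benjamini-Hochberg, under 0.01. The filter on low counts kept 571 miRNAs and 3 of the 5 members, miR-192-5p, miR-194-5p and miR-375-3p. miR-375-3p passed it through both serum libraries and RB18 in R2i. By edgeR's test, 0 of these 3 were called in 2i against serum, where 34.2% of the miRNAs tested were called. The count was also 0 in R2i against serum, where 30.6% were called, and 0 for the ground state (the mean of 2i and R2i) against serum, where 37.0% were. In 2i against R2i it was 0 as well, beside 0.350% of all tested. At an unadjusted p under 0.05, edgeR's test counted miR-375-3p alone in 2i against serum and in the ground state against serum, 1 of the 3 in each, and 0 in the other comparisons. Of all 571 miRNAs, 329 were under that limit in 2i against serum and 329 in the ground state against serum. There were 283 of 571 in R2i against serum and 104 of 571 in 2i against R2i. With 3 members tested, their counts are too few to be set apart from this background. With 2 libraries against 2, the smallest two-sided p of an exact permutation test is 0.33, and these p-values rest on the spread edgeR shares between miRNAs.

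miR-192-5p changed by a log2 fold change of 0.05 (SE 0.31, interval -0.68 to 0.78, adjusted p = 0.889, edgeR) in 2i against serum. Only 14 of the 571 miRNAs tested (2.45%) had a smaller change, and the median size over all was 0.99 on the log2 scale. For R2i against serum the log2 fold change was 0.29 (SE 0.31, interval -0.44 to 1.02, adjusted p = 0.499, edgeR). The intervals thus reach about 2-fold in R2i and stop short of it in 2i. Its SD over the 6 libraries was 0.32 on the log2 scale, against a median of 0.67 for all miRNAs tested.

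For miR-194-5p the log2 fold change was -0.24 in 2i against serum (SE 0.29, interval -0.93 to 0.44, adjusted p = 0.517, edgeR). In R2i against serum it was 0.06 (SE 0.29, interval -0.62 to 0.75, adjusted p = 0.888, edgeR), a size under which 4.03% of all miRNAs fell. Changes of more than 2-fold lie outside both intervals. Its SD over the 6 libraries, 0.28 on the log2 scale, was the smallest of the 3 members tested. The test of a different ground-state effect in RB20 than in RB18 gave a difference of 0.62 (SE 0.50, adjusted p = 0.843, edgeR), which was not called. Its spread comes from 2i against R2i within a line, with a single serum library per line. It therefore cannot tell whether the opposite order in the lines exceeds the spread between replicates. That test called 0 of all miRNAs (0%), with 27 at an unadjusted p under 0.05.

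miR-375-3p had a log2 fold change of -3.80 in 2i against serum (SE 1.15, interval -6.47 to -1.13, adjusted p = 0.0259, edgeR), which missed the threshold on p. Its size exceeded that of 511 of the 571 miRNAs (89.5%). The filter was passed through both serum libraries and RB18 in R2i and not through 2i, which favours a large fall in 2i. This rank therefore does not set miR-375-3p apart. Against serum, R2i gave -0.97 (SE 0.90, interval -3.06 to 1.12, adjusted p = 0.431, edgeR) and the ground state -2.39 (SE 0.85, adjusted p = 0.0468, edgeR). The direct comparison of 2i with R2i gave -2.83 (SE 1.28, interval -5.81 to 0.15, adjusted p = 0.296, edgeR), and this value became -0.93 without RB18 in R2i and -4.04 without RB20 in R2i. Since both 2i libraries held under 3 counts, the ratio of summed counts is given too: 33 serum counts against 3 in 2i made serum 15.0-fold higher relative to depth, with an exact 95% interval of 4.69 to 76.2 for counting error only.

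**Figure D2:**
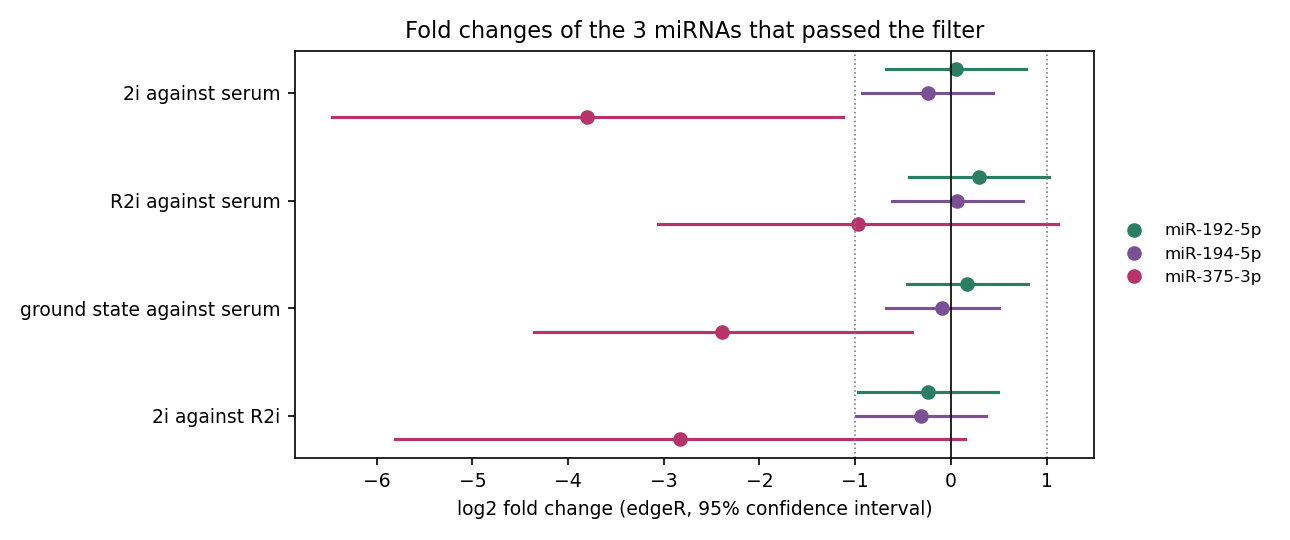
Log2 fold change (horizontal axis) with its 95% confidence interval for miR-192-5p, miR-194-5p and miR-375-3p in 4 comparisons from edgeR; dotted lines mark 2-fold either way. miR-192-5p and miR-194-5p lay between -0.31 and 0.29 throughout, and miR-375-3p at -3.80 in 2i against serum.

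The call of miR-375-3p depended on the settings and on the R2i libraries. Without a filter on low counts, the width of edgeR's intervals (SE 0.80, interval -5.32 to -2.16 in 2i against serum) is that of a spread shared fully between miRNAs. The p-values of that fit, here and below, thus leave out how far a miRNA's own libraries split, and they are too small. miR-375-3p passed in 2i against serum with DESeq2 (log2 fold change -3.88, adjusted p = 0.00815) and without the filter (edgeR, -3.74, adjusted p = 2.33e-05). It also passed with edgeR when RB18 in R2i was left out (-3.76, adjusted p = 0.00845) or RB20 in R2i was left out (-3.77, adjusted p = 0.00653). Over all alternatives its adjusted p in 2i against serum ran from 2.33e-05 to 0.117, with a log2 fold change between -4.06 and -3.06. For R2i against serum, the library decided the direction: the log2 fold change was -2.83 without RB18 in R2i and 0.27 without RB20 in R2i. Without RB18 in R2i the ground state against serum passed as well (-3.29, adjusted p = 0.00637, edgeR), as it did without the filter on low counts (-2.32, adjusted p = 0.000511). Within lines, after TMM scaling, the 2i level was 0.0807 of serum in RB18 and 0.056 in RB20, and the R2i level was 1.71 times serum in RB18 and 0.105 in RB20.

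**Figure D3:**
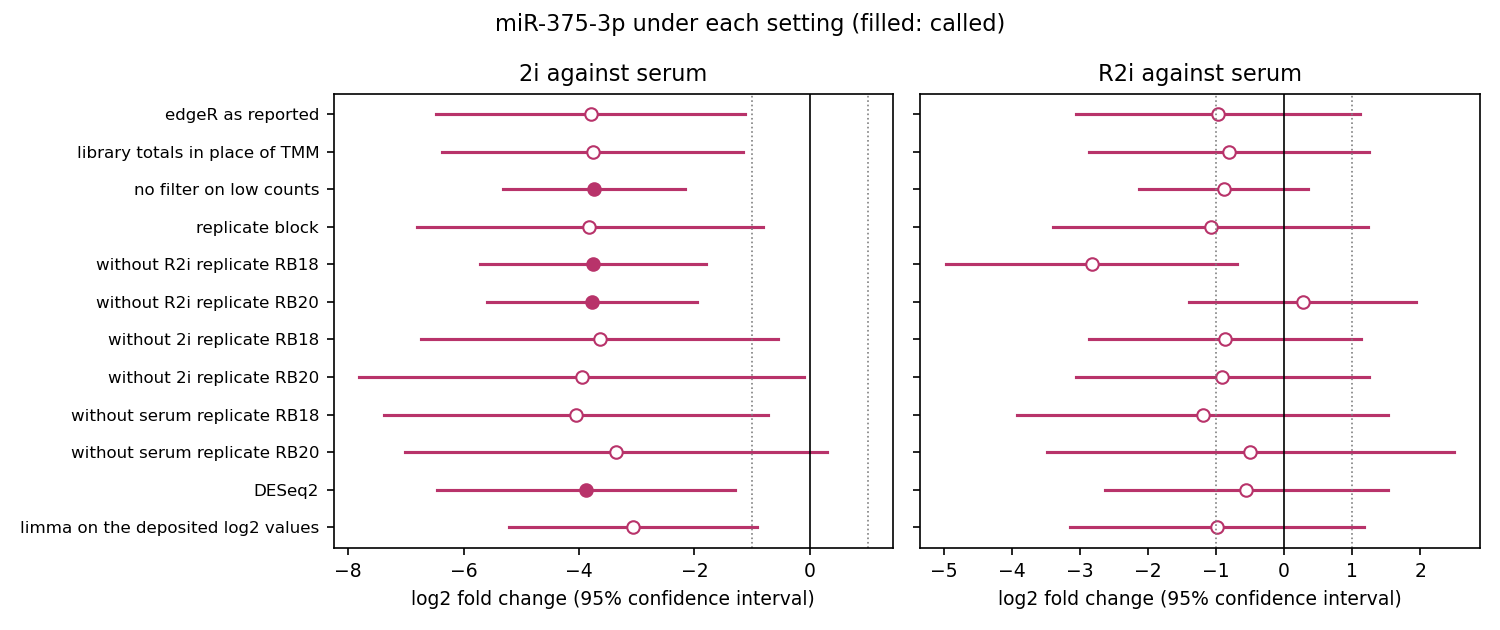
Log2 fold change (horizontal axes) of miR-375-3p with its 95% confidence interval under each setting, in 2i against serum (left) and R2i against serum (right); filled points passed the call. In 2i against serum all estimates lay between -4.06 and -3.06, and in R2i against serum they ran from -2.83 (without RB18 in R2i) to 0.27 (without RB20 in R2i).

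miR-215-5p and miR-122-5p were too low for the filter and were compared by their counts summed over both lines. The exact intervals cover counting error only and leave out the spread between libraries. For miR-215-5p, 16 serum counts against 2 in 2i made serum 10.9-fold higher relative to depth (exact 95% interval 2.56 to 97.5), and 16 against 8 in R2i made it 2.32-fold higher (0.939 to 6.27). All 8 of the R2i counts came from RB20. When edgeR was run without the filter, the log2 fold change of miR-215-5p in 2i against serum was -3.23 (SE 1.06, adjusted p = 0.0112), which was not called. The limit given above for p-values of that fit holds here too. For miR-122-5p, serum was 1.81-fold higher than 2i (12 counts against 9, interval 0.701 to 4.87) and 4.65-fold higher than R2i (12 against 3, interval 1.25 to 25.7). Without the filter, edgeR gave miR-122-5p a log2 fold change of -0.82 in 2i (adjusted p = 0.671) and -2.21 in R2i (adjusted p = 0.143) against serum.

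Muscle miRNAs were higher in serum than in 2i. The sum of miR-1a-3p, miR-133a-3p and miR-206-3p, which mark striated muscle, was 79.4 CPM in RB18 and 46.6 CPM in RB20 in serum after TMM scaling. It was 0.486 CPM in RB18 and 0.305 CPM in RB20 in 2i, and 7.72 CPM in RB18 and 4 CPM in RB20 in R2i. Of this list of 3, miR-133a-3p passed the filter on low counts through serum alone, and miR-1a-3p through both serum libraries and RB18 in R2i. Passing through serum, where they were high, favours a lower call in the other media. Both tested members were called lower in 2i, as were 17.3% of all miRNAs tested, and in R2i, as were 15.6%. miR-375-3p was not, and its level in RB18 did not follow them in R2i, where it was 1.71 times serum. In 2i miR-1a-3p was at 0 in both libraries, and miR-206-3p had 3 counts in a single serum library, RB20. The part of this difference in the levels of miR-375-3p, miR-215-5p and miR-122-5p was not tested.

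The lines differed in miR-192-5p in the same direction in all 3 media, a comparison made after the values were seen. The ratio of RB20 to RB18 was 1.25 for serum, 1.35 for 2i and 1.29 for R2i, or 1.46, 1.39 and 1.48 after TMM scaling. The log2 fold change of RB20 against RB18 was 0.53 (SE 0.17, interval 0.12 to 0.94, unadjusted p = 0.0199, adjusted p = 0.647, edgeR), from the fit with the cell line as a block. With library totals in place of TMM it was 0.37. For miR-194-5p it was 0.35 (adjusted p = 0.831, edgeR), and RB18 was the higher line in serum. By edgeR's test 0 of the 571 miRNAs (0%) were called between the lines, and 36 had an unadjusted p under 0.05.

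Comparing miRNAs within a library removes the scaling between libraries. There were 15.4 counts of miR-192-5p per count of miR-194-5p in RB18 in serum (exact 95% interval 13.1 to 18.2). The ratio was 23.3 in RB20 in serum (20.0 to 27.4), 23.7 in RB18 and 23.9 in RB20 in 2i, and 23.6 in RB18 and 22.4 in RB20 in R2i. RB18 in serum thus stood below the other 5 libraries, whose intervals overlapped one another, and its interval did not reach theirs. The intervals cover counting error only, and a single library per line and medium gives no replicate check.

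**Figure D4:**
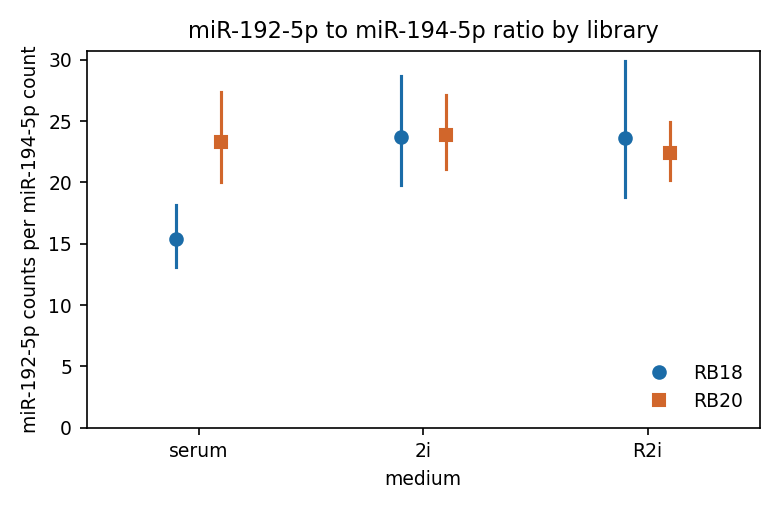
Counts of miR-192-5p per count of miR-194-5p (vertical axis, from 0) in each library by medium; circles are RB18, squares RB20 and bars exact 95% intervals. RB18 in serum lay at 15.4 and the other 5 libraries between 22.4 and 23.9.

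The mature sequences of miR-192-5p and miR-215-5p allow their clusters to be counted apart. miR-192-5p made up 99.9% (Wilson interval 99.85% to 99.93%) of the 25722 counts of the pair that shares the seed UGACCUA, and miR-215-5p the rest. Reads that separate the miR-194 genes were few. The 3p arm unique to Mir194-2, miR-194-2-3p, had 10 counts over the 6 libraries, and the arm unique to Mir194-1, miR-194-1-3p, had 0. The share of miR-194-5p from each gene cannot be read from its own counts. miR-192-5p also made up 99.9% of the counts of its 2 arms, with 26 counts for miR-192-3p. The other arms of the remaining hairpins, miR-215-3p, miR-375-5p and miR-122-3p, had 0 counts in all 6 libraries.

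Of 9 further miRNAs known from liver, pancreas or gut, 5 had any count and 4 passed the filter. In 2i against serum 0 of these 4 were called with edgeR, where 34.2% of all miRNAs tested were called in either direction and 17.3% lower. At an unadjusted p under 0.05 by edgeR's test there were 2 of the 4, miR-31-5p and miR-7a-5p, beside 329 of all 571. In R2i against serum 1 of the 4 was lower, beside 15.6% of all, and in the ground state against serum 2 of the 4 were lower, beside 20.0% of all. For the ground state the log2 fold changes were -1.24 for miR-31-5p, -1.03 for miR-7a-5p, -0.059 for miR-148a-5p and 0.025 for miR-148a-3p. The last 2 are arms of the same hairpin. The median of the 4 was -0.54, against -0.02 over all miRNAs tested. It lies between the 2 lower miRNAs and the 2 unchanged arms and describes neither. miR-31-5p, expressed in inflamed gut epithelium and other epithelia, fell from 324 in RB18 and 336 in RB20 in serum to 80.6 in RB18 and 112 in RB20 in R2i, as CPM after TMM scaling. Its 2i levels of 188 and 213 lay between these media without overlap. The log2 fold change of miR-31-5p was -1.76 in R2i (SE 0.26, adjusted p = 0.00103, edgeR) and -1.24 in the ground state (SE 0.21, adjusted p = 0.00173, edgeR).

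miR-7a-5p, an islet and neuroendocrine miRNA like miR-375, was abundant. Its TMM-scaled levels were 5477 CPM in RB18 and 8192 CPM in RB20 in serum. They were 3490 CPM for RB18 and 3154 CPM for RB20 in 2i, and 3554 CPM for RB18 and 3186 CPM for RB20 in R2i. Serum was the higher medium in both lines. It was called in the ground state with a log2 fold change of -1.03 (SE 0.22, adjusted p = 0.00485, edgeR), close to the 2-fold limit. The call was lost under most alternatives. With library totals (-0.94) the change fell short of 2-fold. When the line was added as a block (-1.02) it stayed beyond 2-fold and missed the threshold on p. miR-148a-3p, a liver and pancreas miRNA, had log2 fold changes of -0.03 in 2i and 0.08 in R2i, neither called. miR-216a-5p, miR-216b-5p and miR-217-5p of pancreatic acinar cells and miR-802-5p of liver and islets had 0 counts in all 6 libraries, and miR-802-3p had 1 count, in RB20 in serum.

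The miRNAs most like each member were sought by Pearson's r of log2(TMM-scaled CPM + 1) over the 6 libraries, which share media, lines and depth. The 3 highest r among 571 miRNAs over 6 libraries would be high by selection alone. They serve as a description without a test. miR-192-5p came closest to miR-654-3p (r = 0.941), let-7b-5p (r = 0.909) and miR-10b-5p (r = 0.873), ahead of its cluster partner miR-194-5p (r = 0.673). All of these were higher in RB20 than in RB18 in at least 2i and R2i. miR-654-3p was at 0 in RB18 in serum and in 2i and at 8.58 CPM or less elsewhere, so its r rests on low counts. miR-194-5p came closest to miR-677-3p (r = 0.911), miR-8112 (r = 0.856) and miR-322-5p (r = 0.806). Low counts also underlie the r of miR-677-3p (2.92 to 10.3 CPM) and miR-8112 (4.29 to 7.44 CPM). miR-375-3p came closest to miR-92a-2-5p (r = 0.94), miR-20a-5p (r = 0.93) and miR-34b-5p (r = 0.916). miR-34b-5p shared its low 2i levels, at 0.486 CPM in RB18 and 0.611 CPM in RB20, where miR-375-3p had 1 and 2 counts. In R2i miR-34b-5p was also higher in RB18 than in RB20, at 12.9 against 4.86 CPM.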

How the data were processed

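Small RNA libraries of mouse ESCs in serum, 2i and R2i were analysed, 2 per medium. The authors deposited whole-number counts for 1907 mature miRNAs, not normalized, and log2 values that equal log2(count / size factor + 1) within 0.01. Per the labels' processing notes, FastQC 0.11.5, cutadapt 1.3, Bowtie 1.1.2, featureCounts 1.5 and the build mm10 were used. How reads that match several genes were counted is not given in the sources used here, which bears on miR-194-5p.

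The test of the counts was that of edgeR 4.0.16, run in R 4.3.3 (TMM, filterByExpr with a minimum count of 10 and total of 15, quasi-likelihood test with 1 coefficient per medium, Benjamini-Hochberg adjustment), after a check on simulated counts. The biological coefficient of variation was 24.6%. Alternatives were DESeq2 1.42.0, limma 3.58.1 on the deposited log2 values, library totals, other filters and limits, the cell line as a block, and each library left out. RB18 and RB20 pair the libraries because the lines are the same in each medium. The correlations of the line differences were 0.21 for serum with 2i, -0.128 for serum with R2i and 0.248 for 2i with R2i. The members and the lists of other miRNAs were chosen with earlier results of these data known. Named were the members, their other arms, the further tissue miRNAs that were called or bear on a result, the 3 most like each member, and markers that moved with a member. Loci are from GENCODE M21.

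The ES cell, blood and serum, mesenchymal, muscle and neural lists served as marker lists. Summed TMM-scaled levels of the mesenchymal list were 1431 CPM in RB18 and 2047 CPM in RB20 in serum. They were 3331 and 3653 CPM in 2i, and 2415 and 2423 CPM in R2i, in the same order of lines. This list was thus lowest in serum, unlike the muscle list, and 0 of its 4 tested miRNAs were called against serum. The neural list summed to 785 to 1090 CPM, and its media overlapped.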

Additional observations from a re-analysis of the deposited data

How the results depend on the processing

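The log2 fold changes of miR-192-5p, miR-194-5p and miR-375-3p between media had 152 values under an alternative. Of these, 8 newly passed the threshold of their setting, all of miR-375-3p, 11 turned direction without being called, and the others kept both. Where the setting was an adjusted p under 0.05, the estimates were those reported and only the limit was looser. The members called in 2i against serum became 1 with DESeq2, without the filter or at an adjusted p under 0.05, and ranged from 0 to 1 when a library was left out. In the ground state they became 1 without the filter or at that limit, and ranged from 0 to 1. Leaving out each library in turn, the log2 fold change of miR-192-5p ranged from -0.181 to 0.321 in 2i against serum, from -0.0185 to 0.561 in R2i against serum and from -0.487 to 0.0885 in 2i against R2i. That of miR-194-5p ranged from -0.304 to 0.332 in R2i against serum, from -0.265 to 0.0623 in the ground state and from -0.553 to 0.0786 in 2i against R2i, and that of miR-375-3p from -2.83 to 0.272 in R2i against serum. The difference between the lines in the ground-state effect on miR-192-5p, -0.02 as reported, became 0.0534 with at least 10 counts in every library, 0.0684 with library totals and 0.0463 without the filter. The cause of these turns was not tested. With the line added as a block, the log2 fold changes in 2i against serum were 0.06 for miR-192-5p, -0.27 for miR-194-5p and -3.82 for miR-375-3p, and the pairing changed no member's call. Requiring 10 counts in every library left 402 miRNAs and removed miR-375-3p from the test. It called 31.8% of those in 2i against serum, in place of 34.2% of 571, and 135 miRNAs in the ground state in place of 211. In 2i against R2i, 2 miRNAs were called as reported, 25 without the filter, 12 with DESeq2, 3 with library totals or at an adjusted p under 0.05, 1 with 10 counts in every library, 0 with the block and 0 to 3 with a library left out. Depth limits miR-215-5p, miR-375-3p and miR-122-5p, which had 3 counts or fewer in at least 2 of the 6 libraries.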
